A study of Mus musculus with 41 samples.

Results

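The comparison covered 2 histone marks in mouse embryonic stem cells grown in serum with LIF (mESC-ser), namely lactylation of lysine 18 of histone H3 (H3K18la) and acetylation of lysine 27 of the same histone (H3K27ac). The H3K18la and H3K27ac peak lists of these cells were merged into 22934 regions, of 117116 regions obtained when all 24 peak lists of the series were merged. A region was placed in the class both, H3K18la only or H3K27ac only by the lists with a peak in it, with an overlap of 1 bp as the minimum. It was called a promoter region if it lay within 2 kb of any annotated transcription start site (TSS) and distal otherwise. By this rule 9220 regions (40.2%) carried both marks, 9807 (42.8%) H3K18la only and 3907 (17.0%) H3K27ac only. Promoter regions made up 12738 (55.5%) of the total and distal regions 10196.

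The series profiled histone post-translational modifications (hPTMs) by CUT&Tag, in which an antibody brings a transposase to the mark and the DNA beside it is cut and tagged, in 41 samples of mouse cells and tissues. All 3 samples used here came from E14, an established mouse embryonic stem cell line, in serum-lif medium, with control given as the treatment and no genetic change named. The 2 H3K18la samples entered 1 pooled peak list and H3K27ac was profiled in 1 sample, so the spread between replicates could not be measured for either mark. The intervals below are 95% Wilson intervals (for differences of shares, a combination of 2 such intervals) and cover counting error only. Per the labels, the buffers for both marks held sodium butyrate, an inhibitor of histone deacetylases. All cells were of 1 line, and a mark present in fewer cells cannot be told apart from less of the mark in each cell.

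H3K27ac is deposited by p300, CBP and related acetyltransferases and is found at the promoters of expressed genes and at active enhancers. Lactylation is a further acyl modification of histone lysines, for which lactate, the end product of glycolysis, is the source. In embryonic stem cells a small set of transcription factors, among them the products of Pou5f1, Sox2, Nanog and Esrrb, holds the pluripotent state, while regulators of later lineages are kept silent by Polycomb complexes that leave H3K27me3 on their promoters, often beside H3K4me3.

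Sequences from 7 distal regions are printed here as examples of the classes, 1 from the regions with the largest signal in each class and the other 4 from distal regions next to pluripotency genes. Each is 200 bp of the plus strand of mm10 (GRCm38), 5′ to 3′, centred on the interval of highest coverage, and capitals mark a match to one of the motifs searched below. The window nearest to Pou5f1 came from a shared region (chr17:35490456-35490655), the windows nearest to Sox2 (chr3:34692108-34692307), Nanog (chr6:122672897-122673096) and Esrrb (chr12:86518110-86518309) from H3K18la-only regions. The window nearest to Ranbp17 (chr11:33533643-33533842, intergenic) was from a shared region, that in an intron and nearest to Epha4 (chr1:77456802-77457001) from an H3K18la-only region and that in an intron and nearest to Mrps27 (chr13:99353173-99353372) from an H3K27ac-only region.
Pou5f1, both marks: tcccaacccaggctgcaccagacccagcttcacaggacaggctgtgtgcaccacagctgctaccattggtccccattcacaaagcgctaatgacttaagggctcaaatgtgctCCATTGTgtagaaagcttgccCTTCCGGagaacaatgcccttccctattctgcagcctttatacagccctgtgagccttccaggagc
Sox2, H3K18la only: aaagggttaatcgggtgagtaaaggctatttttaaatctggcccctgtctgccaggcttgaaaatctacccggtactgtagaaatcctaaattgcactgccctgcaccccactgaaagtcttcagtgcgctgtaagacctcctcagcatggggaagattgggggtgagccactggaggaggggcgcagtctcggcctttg
Nanog, H3K18la only: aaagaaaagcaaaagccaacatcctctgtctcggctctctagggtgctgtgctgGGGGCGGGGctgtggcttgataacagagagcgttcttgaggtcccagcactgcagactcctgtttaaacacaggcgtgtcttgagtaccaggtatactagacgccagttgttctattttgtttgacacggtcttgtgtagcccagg
Esrrb, H3K18la only: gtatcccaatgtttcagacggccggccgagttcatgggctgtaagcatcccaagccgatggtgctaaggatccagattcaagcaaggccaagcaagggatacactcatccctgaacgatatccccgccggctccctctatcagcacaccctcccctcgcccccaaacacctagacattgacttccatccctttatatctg
Ranbp17, both marks: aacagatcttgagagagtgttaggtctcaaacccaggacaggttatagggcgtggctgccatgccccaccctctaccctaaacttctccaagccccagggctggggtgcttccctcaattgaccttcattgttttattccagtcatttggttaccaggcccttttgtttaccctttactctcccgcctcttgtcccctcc
Epha4, H3K18la only: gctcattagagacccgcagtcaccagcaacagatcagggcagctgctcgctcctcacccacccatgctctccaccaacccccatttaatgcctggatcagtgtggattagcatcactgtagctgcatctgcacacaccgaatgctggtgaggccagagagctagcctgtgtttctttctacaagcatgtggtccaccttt
Mrps27, H3K27ac only: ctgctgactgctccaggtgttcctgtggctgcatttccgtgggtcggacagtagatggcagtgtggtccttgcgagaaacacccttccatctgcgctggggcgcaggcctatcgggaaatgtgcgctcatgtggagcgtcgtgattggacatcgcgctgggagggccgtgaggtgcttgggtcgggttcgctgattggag
The Pou5f1 window held a SOX match and an ETS match, both on the minus strand, and the Nanog window an SP match. The Mrps27 window, from an H3K27ac-only region, held 14 CpG dinucleotides in its 200 bp. That of the largest H3K27ac-only distal region, near Sik3 and not printed, held 0, so single windows do not stand for their class. The shared and H3K18la-only windows held 2 (Pou5f1), 5 (Sox2), 6 (Nanog), 8 (Esrrb), 2 (Ranbp17) and 3 (Epha4).

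At promoters shared regions were the largest class, whereas distal regions mostly carried H3K18la only. Of the promoter regions, 6116 (48.0%, interval 47.1 to 48.9%) carried both marks, 3296 (25.9%) H3K18la only and 3326 (26.1%) H3K27ac only. Of the distal regions, 3104 (30.4%) carried both, 6511 (63.9%, interval 62.9 to 64.8%) H3K18la only and 581 (5.70%, interval 5.26 to 6.17%) H3K27ac only. Read from the peaks of each list, 89.6% of the 5584 distal H3K27ac peaks overlapped H3K18la, whereas 32.4% of the 9632 distal H3K18la peaks overlapped H3K27ac. At promoters these shares were 67.0% of 10080 H3K27ac peaks and 65.0% of 9425 H3K18la peaks.

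**Figure D1:**
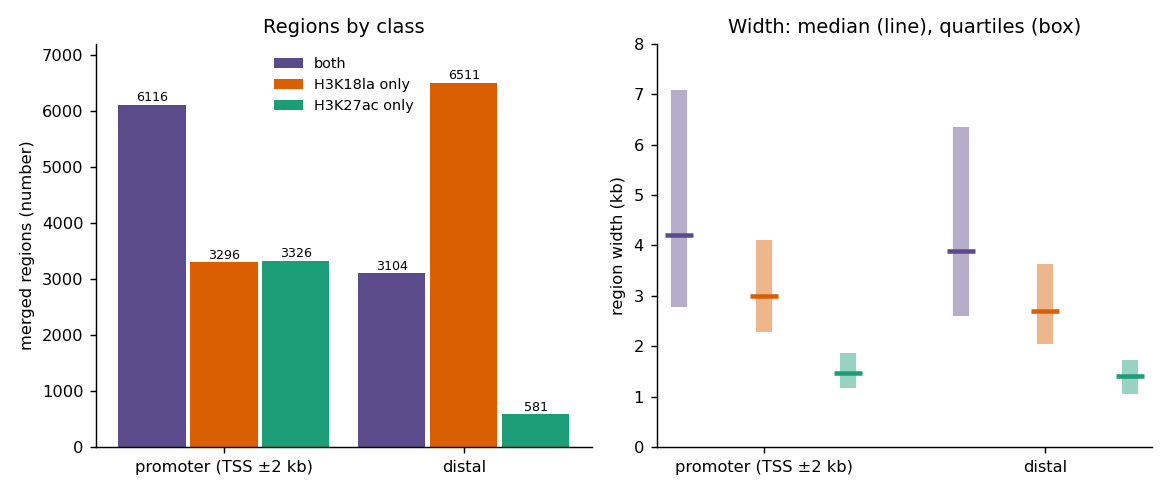
Left, number of merged regions (y axis) carrying both marks, H3K18la only or H3K27ac only, for promoter and distal regions. Right, region width in kb, with the median as a line and the quartiles as a box. H3K18la-only regions were the most numerous distal class (6511) and H3K27ac-only regions the narrowest class at both positions.

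The size of the lists weighed on these shares. The H3K18la list covered 82.4 Mb with 19057 peaks and the H3K27ac list 32.0 Mb with 15664 peaks. Of the H3K27ac bases 78.1% lay in H3K18la peaks, and of the H3K18la bases 30.3% lay in H3K27ac peaks. With the 10000 peaks of largest signal in each list, 61.7% of the distal regions carried H3K18la only and 6.99% H3K27ac only. When the H3K18la list was instead cut to the bases of the H3K27ac list, which kept its 3151 largest peaks, the order turned. Then 3.97% of the distal regions carried H3K18la only, 71.7% H3K27ac only and 24.4% both, and at promoters 79.4% carried H3K27ac only. At promoters the order turned with the 5000 largest peaks as well, where 38.4% carried H3K27ac only and 35.2% both. The share of promoter peaks that overlapped the other mark also parted, to 49.6% for H3K27ac and 57.2% for H3K18la with 5000 peaks and to 24.3% and 93.0% with equal bases. The excess of distal H3K18la-only regions therefore held for an equal number of peaks and not for an equal number of bases. How much of it came from the different extent of the lists, from depth or from the number of samples pooled was not tested.

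H3K18la regions were wider than H3K27ac regions. The median width of distal regions was 3896 bp for both marks, 2698 bp (quartiles 2046 and 3629) for H3K18la only and 1398 bp (quartiles 1058 and 1730) for H3K27ac only. The H3K18la-only value was 5992 bp with the 5000 largest peaks and 8304 bp with equal bases, settings that keep the peaks of largest total signal. At promoters the medians were 4211, 3005 and 1472 bp in the same order. Regions over 10 kb were mainly shared ones, with 849 at promoters and 275 distal. Over 10 kb, H3K18la-only regions numbered 45 at promoters and 38 distal, and H3K27ac-only regions 0. A shared region could hold several H3K27ac peaks under 1 H3K18la peak, as did 20.7% of the shared promoter regions and 12.7% of the shared distal ones.

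Where a shared region had 1 peak of each mark, the H3K27ac peak mostly lay inside the H3K18la peak. It did so wholly in 80.0% of 2709 distal and 68.1% of 4835 promoter regions, and the H3K18la peak was a median 2.03 times and 1.65 times as wide. The points of highest coverage lay close together, at a median distance of 81 bp in distal and 132 bp in promoter regions. In distal regions 63.9% of the pairs of maxima lay within 200 bp of each other. The percentile ranks of both marks in these shared regions went together with a Spearman correlation of 0.53 over 3104 distal and 0.40 over 6116 promoter regions, where each region shares its width and base composition between the marks.

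Shared regions held the larger peaks of both lists. Peaks were ranked within their own list by total signal (coverage summed over the peak), with 100 as the largest, since coverage was not scaled between lists. The median H3K18la rank was 72.6 in shared distal and 35.3 in H3K18la-only distal regions, and 67.0 against 36.6 at promoters. The median H3K27ac rank was 43.1 in shared distal and 17.5 in H3K27ac-only distal regions, and 67.4 against 39.7 at promoters. A region with several peaks of a mark took the rank of the largest. Several H3K27ac peaks lay in 12.7% of shared distal and 20.7% of shared promoter regions, but H3K27ac-only regions held 1 each. How much this raised the shared medians was not tested. In the highest decile of the H3K18la list lay 612 shared distal regions and 42 H3K18la-only ones. No H3K27ac-only distal region reached the highest decile of the H3K27ac list.

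Divided into deciles of the H3K18la list by total signal, the share of distal H3K18la peaks that overlapped H3K27ac went from 9.80% (103 of 1051) in the lowest decile to 53.6% in the eighth and 93.6% (613 of 655) in the highest. At promoters it went from 42.6% to 96.6%. Distal H3K27ac peaks overlapped H3K18la in 76.0% (594 of 782) of the lowest decile and in all 431 of the highest. Larger peaks were also wider, with a median of 2042 bp in the lowest and 9458 bp in the highest decile of distal H3K18la peaks, and the part of width in the overlap was not tested.

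**Figure D2:**
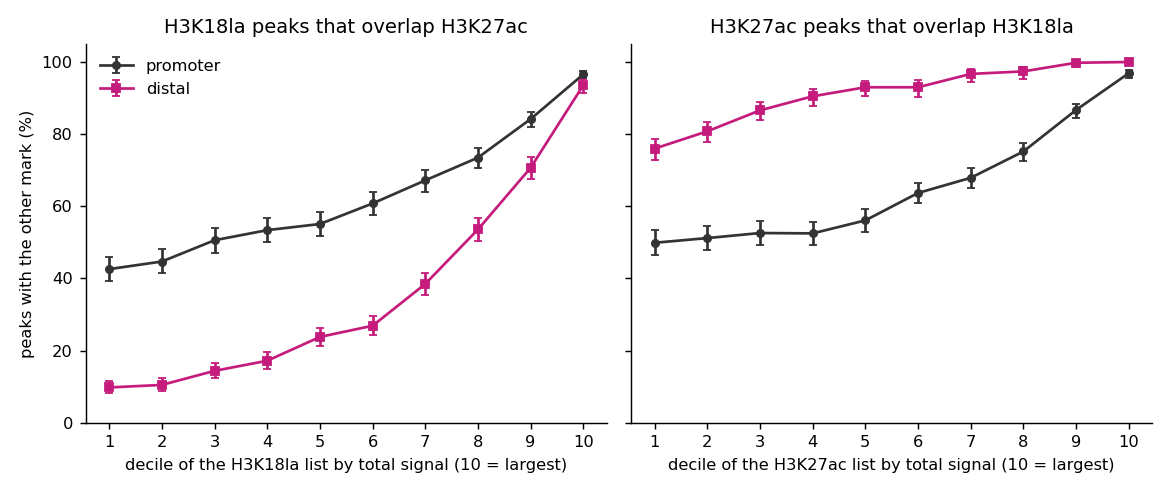
Share of peaks that overlap the other mark (y axis, %, bars are 95% Wilson intervals) by decile of the peak's own list in total signal (x axis, 10 is largest), for H3K18la peaks (left) and H3K27ac peaks (right). Distal H3K18la peaks go from 9.80% to 93.6%, while distal H3K27ac peaks start at 76.0%.

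Around start sites the H3K27ac maxima lay tighter than the H3K18la maxima. Of 8487 H3K27ac peaks with the maximum within 2 kb of a protein-coding TSS, 68.1% had it within 250 bp, against 45.6% of 6019 H3K18la peaks. The median distance was 106 bp for H3K27ac and 314 bp for H3K18la. For both marks the fullest 100-bp interval was the one just upstream of the TSS, with 32.5% of the H3K27ac and 20.7% of the H3K18la maxima.

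**Figure D3:**
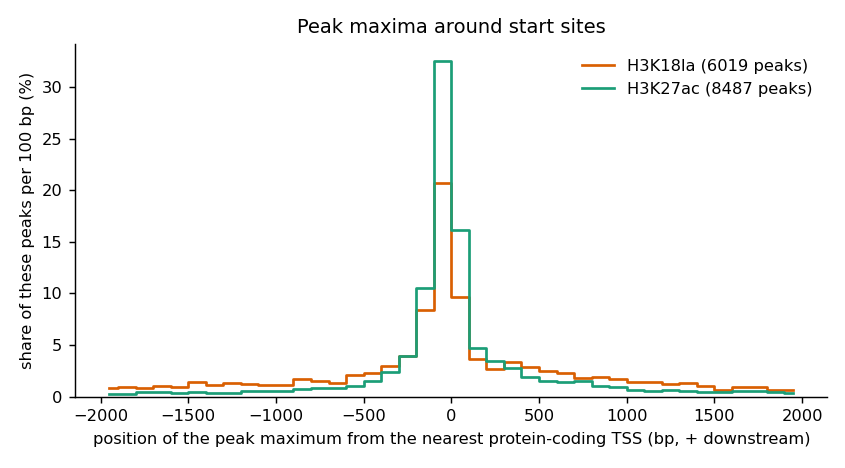
Position of the peak maximum relative to the nearest protein-coding TSS (x axis, bp, positive is downstream) against the share of such peaks per 100 bp (y axis, %), for 6019 H3K18la and 8487 H3K27ac peaks. Both lines have their highest value just upstream of the TSS, at 20.7% for H3K18la and 32.5% for H3K27ac.

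The promoter classes differed in the other marks of the same cells. H3K4me3, the mark of active and poised promoters, lay in 75.4% of the shared promoter regions, 77.4% of the H3K27ac-only ones and 27.8% (interval 26.3 to 29.4%) of the H3K18la-only ones. H3K27me3 lay in 12.4% of the shared, 4.54% of the H3K27ac-only and 30.7% of the H3K18la-only promoter regions. The difference between H3K18la-only and shared regions was 18.2 percentage points (interval 16.5 to 20) for H3K27me3 and -47.6 points (interval -49.4 to -45.7) for H3K4me3. Neither mark was found in 59.8% of the H3K18la-only, 23.0% of the shared and 22.0% of the H3K27ac-only promoter regions. Within 500 bp at the point of highest coverage, where width does not enter, H3K27me3 lay in 27% of H3K18la-only, 8.16% of shared and 4.24% of H3K27ac-only promoter regions.

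Distal regions mostly lacked both methylation marks. H3K4me3 was found in 19.4% of shared, 12.6% of H3K27ac-only and 1.67% of H3K18la-only distal regions, and H3K27me3 in 7.22%, 5.51% and 9.84%. In distal regions the H3K27me3 difference between H3K18la-only and shared regions was 2.63 points (interval 1.44 to 3.77), while that between H3K27ac-only and shared regions was -1.71 points with an interval that held 0 (-3.56 to 0.619).

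The same line grown in 2i medium, which holds the cells in a naive state, gave a further H3K18la list. It held 84.7% of the shared and 65.1% of the H3K18la-only distal regions, and 30.1% of the regions with H3K27ac only in serum cells. At promoters the shares were 89.6%, 64.8% and 33.1%. H3K27ac in 2i medium was not analysed here.

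**Figure D4:**
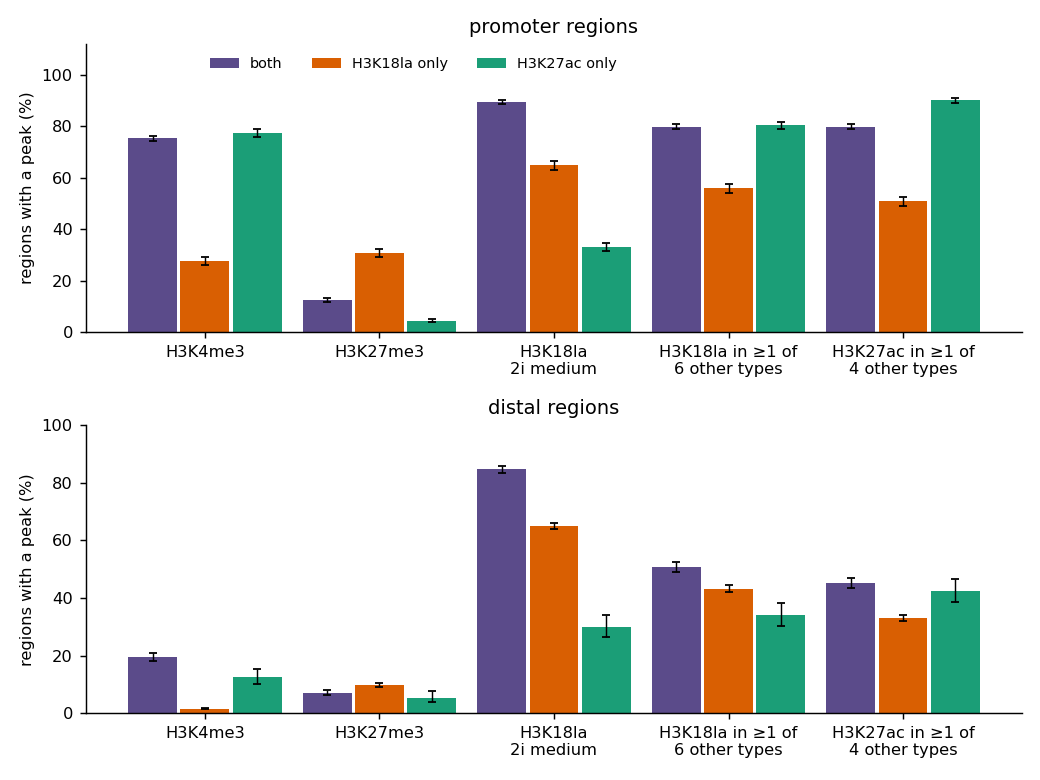
Share of promoter (upper) and distal (lower) regions of each class that overlap a peak of another list (y axis, %, bars are 95% Wilson intervals). From left to right the lists are H3K4me3 and H3K27me3 of the serum cells, H3K18la of the cells in 2i medium, H3K18la in at least 1 of 6 other cell types and H3K27ac in at least 1 of 4. At promoters the H3K18la-only class is lowest for H3K4me3 (27.8%) and highest for H3K27me3 (30.7%).

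The 6 other cell types with an H3K18la list were myoblasts, myotubes, adipocytes (ADIPO), gastrocnemius muscle (GAS), post-ischemia macrophages (PIM) and bone marrow-derived macrophages (BMDM), of which the last 4 also had H3K27ac. Promoter regions with H3K27ac only in mESC-ser were found with H3K27ac in other cells more often than shared ones, and H3K18la-only regions less often than either. H3K18la was present in at least 1 of the 6 in 80.4% of the H3K27ac-only, 79.9% of the shared and 55.9% of the H3K18la-only promoter regions. The difference of H3K27ac-only and shared regions was 0.541 points with an interval of -1.16 to 2.21. By cell type it was 6.53 points in ADIPO (interval 4.50 to 8.54). In each of the other types it was negative, from -5.13 points in PIM to -17.6 in GAS, with intervals below 0. H3K18la in all 6 was found in 1.44% of the H3K27ac-only and 8.31% of the shared promoter regions. H3K27ac was present in at least 1 of 4 cell types in 90.1% of the H3K27ac-only, 79.9% of the shared and 50.8% of the H3K18la-only promoter regions, and the first exceeded the second by 10.1 points (interval 8.69 to 11.5). It was present in all 4 cell types in 40.6% of the H3K27ac-only, 37.4% of the shared and 6.77% of the H3K18la-only promoter regions. Distal regions were found less often in other cells, with H3K18la in at least 1 of 6 in 50.7% of the shared, 43.3% of the H3K18la-only and 34.3% of the H3K27ac-only regions. For H3K27ac in at least 1 of 4 the distal shares were 45.2%, 33.0% and 42.5%, and the difference of H3K27ac-only and shared regions had an interval that held 0 (-7.05 to 1.70 points).

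Classed in the same way, the distal H3K18la-only share was 43.9% in ADIPO, 35.4% in GAS, 59.3% in PIM and 61.2% in BMDM, beside 63.9% in mESC-ser. The distal H3K27ac-only share was 7.09%, 32.7%, 6.13% and 5.10%, beside 5.70%. At promoters mESC-ser had the highest H3K18la-only share, 25.9% against 16.6 to 20.4% in these 4 cell types. A single set against 4 permits no test of this difference, and the stem cells entered CUT&Tag as whole cells while the other cell types entered as nuclei. The extent of the lists differed as well, and in GAS and BMDM, unlike mESC-ser, H3K27ac covered more bases (197 and 32.8 Mb) than H3K18la (123 and 22.6 Mb).

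Base composition set the H3K27ac-only promoter regions apart. A 500-bp window at the maximum was called CpG-rich where its GC content was at least 50% and its observed over expected CpG ratio at least 0.6. This was the case for 73.3% of the H3K27ac-only and 13.3% of the H3K18la-only promoter regions. The shared ones gave 31.9% at the H3K18la maximum and 45.7% at the H3K27ac maximum. The median CpG ratio was 0.753 in H3K27ac-only and 0.282 in H3K18la-only windows, against 0.396 and 0.563 at the H3K18la and H3K27ac maxima of shared regions. Around the start sites of protein-coding genes, in place of the maxima, the classes lay closer. There CpG-rich sequence was found at 86.5% of the H3K27ac-only, 77.6% of the shared and 54.6% of the H3K18la-only genes. These windows were 1000 bp long and the unit was the gene, so more than the position differed. Distal windows were CpG-poor in all 3 classes, with 8.43% CpG-rich windows in the H3K27ac-only and 1.44% in the H3K18la-only class.

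Distal H3K18la-only regions lay furthest from protein-coding start sites, at a median of 20723 bp, against 15307 bp for shared and 9397 bp for H3K27ac-only regions. Their maxima lay between annotated genes in 52.7%, in introns in 43.6% and in exons in 3.75%. Of the H3K27ac-only distal maxima 30.1% lay between genes, 56.8% in introns and 13.1% in exons. Of the H3K18la-only distal regions 18.2% lay within 5 kb of an H3K27ac peak, and the median distance was 26225 bp. Of the H3K27ac-only distal regions 32.7% lay within 5 kb of an H3K18la peak, and the median distance was 10798 bp.

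Motifs were counted on both strands in 200-bp windows at the H3K18la maximum of shared and H3K18la-only regions and at the H3K27ac maximum of H3K27ac-only regions, beside 255922 genome windows of that length spaced 10 kb apart, whose base composition differs from that of the regions. The ESRRB motif TCAAGGTCA was present in 2.45% of the shared and 2.49% of the H3K18la-only distal windows, against 0.688% (4 of 581) of the H3K27ac-only ones and 0.413% of the genome windows. At the H3K27ac maximum of the shared distal regions it was 1.48% (interval 1.11 to 1.97%), which overlaps the interval of the H3K27ac-only windows (0.268 to 1.76%). The KLF motif GGGTGTGGC gave 3.32%, 3.07%, 0.688% and 0.268% in the same order. The SOX motif ACAATGG, which is present in the Pou5f1 window printed above, gave 6.02%, 7.20%, 2.75% and 3.56%. The AP-1 motif TGAGTCA gave 6.80%, 8.60%, 2.75% and 3.18%. The octamer ATGCAAAT, the POU factor motif, lay in 2.22% (interval 1.76 to 2.80%) of the shared, 2.4% (2.05 to 2.80%) of the H3K18la-only and 1.38% (0.699 to 2.69%) of the H3K27ac-only distal windows, against 1.76% of the genome windows. These matches are letters in a window and not sites of binding.

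The ETS, NRF1 and SP motifs, which hold a CpG, were more frequent in the H3K27ac-only than in the H3K18la-only promoter windows. The ETS motif CCGGAAG lay in 16.1% of the H3K27ac-only, 2.55% of the H3K18la-only and 6.85% of the shared promoter windows, the last being 9.37% at the H3K27ac maximum. Its genome share was 0.601%. The NRF1 motif GCGCATGCG lay in 2.86% of the H3K27ac-only and 0.273% of the H3K18la-only promoter windows (genome 0.0281%), and the SP motif GGGGCGGGG, present in the Nanog window above, in 13.8% and 5.04% (genome 0.341%). At the H3K27ac maximum of the shared promoter regions NRF1 lay in 1.72% and SP in 12.5% (interval 11.7 to 13.3%), the latter overlapping the interval of the H3K27ac-only windows (12.7 to 15.0%). The YY1 motif AAGATGGC, which holds no CpG, lay in 3.85% and 1.24% of these windows (genome 1.77%). The CTCF core AGGGGGCGC lay in 1.02% and 0.607% of them (genome 0.0442%). No part of the CpG content in these shares was tested.

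At the level of genes, H3K18la was present within 2 kb of a start site of 7272 (33.4%) and H3K27ac of 8749 (40.2%) of 21755 protein-coding genes. Both marks were present at 5662 genes (26.0%), H3K18la only at 1610 (7.40%), H3K27ac only at 3087 (14.2%) and neither at 11396 (52.4%). Of the 10359 genes with either mark, 54.7% (interval 53.7 to 55.6%) carried both, a share that was 34.6% with the 5000 largest peaks of each list and 19.1% with equal bases. A peak was counted for every gene whose promoter it reached, so neighbouring genes can share 1 peak. H3K27me3 lay at 27% and H3K4me3 at 48.8% of all protein-coding promoters. By class, H3K27me3 lay at 55.0% of the H3K18la-only, 16.3% of the shared and 7.26% of the H3K27ac-only promoters. It lay at 33.8% of the promoters with neither H3K18la nor H3K27ac. H3K4me3 lay at 56.0% of the H3K18la-only, 91.8% of the shared and 86.8% of the H3K27ac-only promoters of protein-coding genes. Among CpG-rich promoters alone the H3K27me3 shares were 67.5%, 15.5% and 7.08%. At CpG-rich promoters with neither H3K18la nor H3K27ac the share was 58.1%, so a high share was not particular to the H3K18la-only class. Peaks of both H3K4me3 and H3K27me3, the pattern called bivalent, were found at 38.0%, 14.9% and 6.41% of the promoters of these classes. With neither H3K18la nor H3K27ac the share was 9.93%. The 2 methylation peaks need not lie at the same start site or in the same cells.

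All 8 stem cell markers (Pou5f1, Sox2, Nanog, Esrrb, Zfp42, Klf4, Tfcp2l1 and Utf1) carried both marks, against 26.0% of all protein-coding genes, as the label of the cells would have it. Of 9 markers of fibroblasts and differentiated cells, 6 (Col1a1, Col1a2, Csf1r, Ptprc, Myh1 and Adipoq) carried neither mark, a share near the 52.4% of all protein-coding genes. Vim, an intermediate filament gene, and Pecam1, an adhesion molecule also used to mark pluripotent cells, carried both, and Thy1 carried H3K18la only, at the rank of 0.609.

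**Figure D5:**
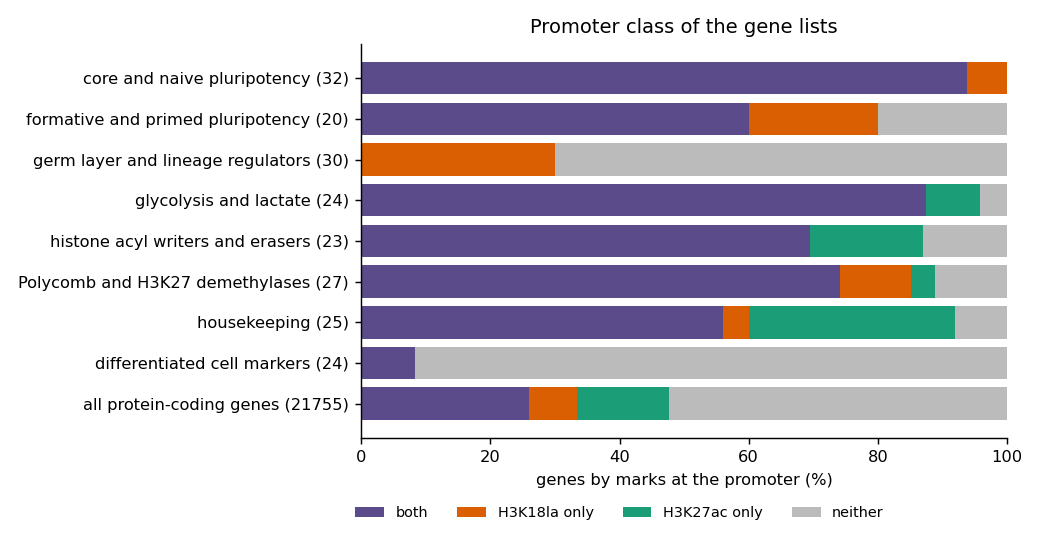
Share of genes (x axis, %) in each promoter class for 8 gene lists, with the number of genes in brackets, and for all 21755 protein-coding genes. The pluripotency and glycolysis lists are mainly in the class with both marks, and the germ layer list has no gene in that class.

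Core and naive pluripotency genes carried both marks at 30 of 32 promoters, against 26.0% of all protein-coding genes, and with large peaks. The median rank was 92.3 for H3K18la and 91.3 for H3K27ac, beside 60.9 and 63.0 over all marked protein-coding genes. Pou5f1, the gene of OCT4, had an H3K18la peak of 22900 bp at rank 99.1 (total signal 610068) and an H3K27ac peak of 13594 bp at rank 99.9 (353452). Esrrb, an orphan nuclear receptor, had an H3K18la peak of 48609 bp at rank 99.9 (1559548) and an H3K27ac peak of 8582 bp at rank 99.1 (157092). At Esrrb the H3K18la domain was thus several times as wide as the largest H3K27ac peak.

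Sox2 ranked 98.7 for H3K18la over 21159 bp and 96.4 for H3K27ac over 5276 bp. Nanog ranked 98.7 and 94.7, over 18985 and 5268 bp. Fgf4, a growth factor that primes the cells for differentiation, ranked 99.2 and 99.6. Tet1, which oxidises 5-methylcytosine, ranked 99.5 and 97.0, Dppa5a, an RNA-binding protein of pluripotent cells, 99.7 and 96.8, and Trim28, a corepressor of retroelements, 93.8 and 99.8. For these genes both marks were thus among the largest peaks of their lists. The marks parted at Tfcp2l1, a factor of the naive network, where H3K18la ranked 89.1 (9317 bp) and H3K27ac 29.4 (1316 bp). Utf1 ranked 98.7 and 96.5, Zfp42, a zinc-finger marker of these cells, 87.2 and 92.8, and Klf4 74.3 and 81.9.

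The genes in this list with H3K18la only were Nr0b1, an orphan nuclear receptor gene, at rank 48.9 (2144 bp) and Prdm14, a regulator of the naive state and of germ cells, at rank 85.2 (5616 bp). Neither had an H3K27ac peak within 2 kb of a start site. Over the list, H3K27me3 lay at 6 and H3K4me3 at 30 of 32 promoters, against 27% and 48.8% of all protein-coding promoters. Prdm14 had H3K4me3 and H3K27me3 as well, and its nearest distal regions were 1 shared region (chr1:13098990-13106020, rank 91.1 for H3K18la and 73.3 for H3K27ac) and 2 with H3K18la only.

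Distal regions whose nearest protein-coding gene was in the list numbered 21 with both marks, 48 with H3K18la only and 5 with H3K27ac only, a split near that of all distal regions (30.4%, 63.9% and 5.70%). Sox2 was nearest to 2 shared, 5 H3K18la-only and 1 H3K27ac-only regions. The largest shared one (chr3:34732530-34749149) lay 82125 bp from the Sox2 start site and was 16620 bp wide, at rank 98.9 for H3K18la and 88.1 for H3K27ac. The largest H3K18la-only one (chr3:34691013-34702388), which holds the Sox2 window printed above, ranked 89.3 over 11376 bp, and none of the 6 other cell types had an H3K18la peak in either.

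Esrrb was nearest to 6 distal regions, all with H3K18la only and at ranks from 13.1 to 59.9. The Esrrb window above is from the largest (chr12:86516063-86520807, total signal 57532). Pou5f1 was nearest to 1 distal region (chr17:35483657-35492994), shared, 13024 bp away and at rank 95.8 for H3K18la and 90.7 for H3K27ac. It is the region of the Pou5f1 window with the SOX and ETS matches. Nanog was nearest to 1 H3K18la-only region (chr6:122672668-122674993) with a low rank of 5.89. Zfp42 was nearest to 3 shared, 3 H3K18la-only and 2 H3K27ac-only regions, the largest a shared one of 8609 bp (chr8:43324231-43332839) at rank 96.1 for H3K18la and 45.4 for H3K27ac.

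Genes of the formative and primed state carried both marks at 12, H3K18la only at 4 and neither mark at 4 of 20 promoters, against 26.0%, 7.40% and 52.4% of all protein-coding genes. Named for their high ranks in this list, the ligand gene Nodal ranked 98.6 for H3K18la and 99.3 for H3K27ac, its antagonists Lefty1 99.4 and 96.1 and Lefty2 98.7 and 99.8, and its co-receptor Tdgf1 99.7 and 99.7. Etv5, an ETS factor, ranked 99.8 and 93.2, and Dnmt3l, a cofactor of de novo DNA methylation, 98.3 and 94.4. H3K18la only was found at the transcription factor genes Foxd3 (rank 94.7, 10020 bp), Lef1 (90.3), Otx2 (67.0) and Grhl2 (64.4). All 4 also carried H3K4me3 and H3K27me3. Neither mark was found at Cdh2, Fgf5, Pou3f1 and Sox3, 4 genes with H3K27me3. Over the list, H3K27me3 lay at 15 and H3K4me3 at 19 of 20 promoters, against 27% and 48.8% of all protein-coding promoters. Of the genes with both H3K18la and H3K27ac, Dnmt3a, Dnmt3b, Etv4, Zic2, Sall2, Lefty1 and Lefty2 carried H3K27me3. Etv5, Dnmt3l, Myc, Nodal and Tdgf1 did not.

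Of 30 regulators of germ layers and later lineages, 0 carried both marks, 9 H3K18la only and 21 neither, where the shares over all protein-coding genes were 26.0%, 7.40% and 52.4%. With the 10000 or 5000 largest peaks of each list or with equal bases, H3K18la only was found at 4, 3 or 2 of them. All 30 promoters had H3K27me3 and 17 had H3K4me3, against 27% and 48.8% of all protein-coding promoters. The 9 with H3K18la had a median rank of 46.6. Pax6, a factor of eye and forebrain development, ranked 85.5 with a peak of 7711 bp, and Neurog3, a factor of endocrine pancreas, 83.5 with 7209 bp. Hand1, a factor of heart and extraembryonic tissue, ranked 80.2 with 7894 bp. Cdx2, a factor of trophectoderm and hindgut, ranked 46.6, Msx2 40.6 and Foxa2, a factor of endoderm, 16.2, and Gsc and Hoxb1 also carried H3K18la only. The H3K18la peaks of this list thus ran from low to high rank without H3K27ac. Eomes, Foxa1 and Gata4 were among those with neither mark. The Neurog3 peak lay in a region shared with an H3K27ac peak outside the 2-kb flank, and this gene counted as shared where genes took the class of their region.

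The genes of glycolysis and lactate handling carried both marks at 21 of 24 promoters, against 26.0% of all protein-coding genes. Gapdh ranked 98.9 for H3K18la and 99.8 for H3K27ac, Eno1 93.8 and 97.3, Eno3 94.1 and 98.7, and Tpi1 97.1 and 96.4. Ldha, the lactate dehydrogenase subunit that favours lactate formation, ranked 95 and 80.8, and Slc16a3, a lactate exporter, 93.5 and 91.7. H3K27ac only was found at Aldoc (rank 36.3) and at Slc16a1, a further lactate transporter (28.5), and neither mark at Pfkm, the muscle form of phosphofructokinase. At Pfkl, the liver form, the marks were far apart in rank, with 10.9 for H3K18la and 88.5 for H3K27ac.

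Genes of histone acyl writers and erasers carried both marks at 16, H3K27ac only at 4 and neither at 3 of 23 promoters, where the shares over all protein-coding genes were 26.0%, 14.2% and 52.4%. The acetyltransferase genes Kat2b (99.4 for H3K18la and 98.4 for H3K27ac), Kat6b (97.4 and 96.7), Kat7 (94.0 and 96.9) and Kat2a (83.9 and 97.2) and the deacylase gene Sirt6 (98.4 and 96.9) had large peaks of both. Acly, which makes acetyl-CoA from citrate, ranked 67.3 and 95.3. H3K27ac only was found at Ep300 (71.0), the gene of p300, Kat5 (79.0), Kat6a (24.8) and Sirt2 (17.8). Crebbp, the gene of CBP, Acss2, which makes acetyl-CoA from acetate, and Hdac8 carried neither.

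Polycomb genes and H3K27 demethylases carried both marks at 20, H3K18la only at 3, H3K27ac only at 1 and neither at 3 of 27 promoters. Over all protein-coding genes these shares were 26.0%, 7.40%, 14.2% and 52.4%. Jarid2, a cofactor of Polycomb repressive complex 2, ranked 99.1 for H3K18la and 95.6 for H3K27ac, and the demethylase gene Kdm6b 99.1 and 99.5. Ring1, a ubiquitin ligase of Polycomb repressive complex 1, ranked 93.3 and 99, Aebp2 98.3 and 96.2, Mtf2 95.3 and 85.4, and Pcgf2 92.6 and 97.1. Ezh2, the methyltransferase, had a small H3K18la peak (14.9) beside a larger H3K27ac peak (69.2). The genes with H3K18la only included Cbx8 (64.8) and Phf19 (52.0), both with H3K27me3, and H3K27ac only was found at Rnf2 (38.3). Bmi1, Cbx2 and Pcgf5 had neither mark and also carried H3K27me3. Over the list, H3K27me3 lay at 8 of 27 promoters, against 27% of all protein-coding promoters. Kdm6b and Kdm2b carried it beside both H3K18la and H3K27ac. Jarid2 was in addition among the genes nearest to the most distal H3K18la-only regions, with 11 of these and 4 shared ones.

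Of 25 housekeeping genes, 14 carried both marks, 8 H3K27ac only, 1 H3K18la only and 2 neither. Over all protein-coding genes these shares were 26.0%, 14.2%, 7.40% and 52.4%. Of all genes with either mark 29.8% carried H3K27ac only, and the marked members of this list came near that share. Ppia (97.9 for H3K18la and 99.4 for H3K27ac), Tubb5 (88.3 and 97.7), Eef1a1 (97.4 and 93.0) and Actb (96.1 and 86.9) were among those with both. Chmp2a ranked 93.8 and 99.8, but its peaks were those of the neighbouring Trim28. Among the H3K27ac-only members, Emc7 ranked 46.0, Psmb2, a proteasome subunit gene, 28.6, Rab7, a GTPase of late endosomes, 52.6 and Reep5 10.0. Gusb had H3K18la only (23.3), and B2m and Hprt had neither mark. Under the equal-bases lists the H3K27ac-only members numbered 15.

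Markers of differentiated cells lacked both marks at 22 of 24 promoters, against 52.4% of all protein-coding genes, among them Acta1, Adgre1, Adipoq and Afp. The other two were Cd68, a macrophage marker, under peaks of 23737 bp (H3K18la, rank 98.6) and 13963 bp (H3K27ac, rank 99.9), and Pecam1 (99.5 and 80.9).

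Genes next to distal regions differed in number between the classes, as did the regions themselves. Of 21755 protein-coding genes, 2230 were nearest to the 3104 shared distal regions and 3899 to the 6511 H3K18la-only regions. In common were 1160 genes (52.0% of the first and 29.8% of the second), and whether this exceeds an overlap by chance was not tested. Msi2, an RNA-binding protein, was nearest to 17 shared regions, Sall1, a zinc-finger factor, to 9 and Cbx7, the main chromodomain protein of Polycomb in these cells, to 8. Tfap2c, a factor of germ cells and trophoblast, was nearest to 12 H3K18la-only regions, and Gse1, Jarid2, Smad7 and Tle3 to 11 each. The nearest gene carried both marks at its promoter for 55.4% of shared, 42.2% of H3K18la-only and 54.9% of H3K27ac-only distal regions. Over all protein-coding genes this share was 26.0%.

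The largest shared regions include places of very high coverage. By the lower of the 2 ranks, the first shared promoter region was chr17:39842980-39848845, with a maximum coverage of 1119 for H3K18la and 932 for H3K27ac, and the first distal one was chr15:75085438-75087068 near Ly6c2, with 8746 and 4782. Both had H3K18la or H3K27ac in nearly all other cell types as well, with H3K18la in 6 and 5 of 6 and H3K27ac in 4 of 4. In all, 29 regions held a peak with a maximum above 1000, and 15 of these overlapped at least 20 of the 24 lists. Leaving the 29 out changed none of the main shares beyond their intervals.

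Below these came wide domains. The widest shared promoter region, over Pitpnc1 (chr11:107403360-107472284), was 68925 bp with 11 H3K27ac peaks under 1 H3K18la domain. The region over Hsp90ab1, Mymx, Slc29a1 and Slc35b2 (chr17:45563410-45622640) was 59231 bp with 14, and that over Irf2bpl (chr12:86865018-86920887) 55870 bp with 10. The region over Rara, a retinoic acid receptor, and Cdc6 (chr11:98921839-98971787) ranked at least 99.9 for both marks. Among distal regions the widest shared one lay 2152 bp from Trim71 (chr9:114521503-114562217), an RNA-binding regulator of early development, and was 40715 bp with 7 H3K27ac peaks. The shared region near Ranbp17 (chr11:33516108-33546694), which holds the Ranbp17 window above, had no H3K18la peak in the 6 other cell types and no H3K27ac peak in the 4.

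The largest H3K18la-only regions stood in the top of their list without an H3K27ac peak. At promoters the first was a region of 19830 bp (chr7:19314910-19334739, rank 98.2) that held no protein-coding start site, lay 4859 bp from Fosb, an AP-1 factor gene, and also had H3K27me3. The first distal one (chr2:22738194-22740336, rank 98.3) was 2143 bp wide with a maximum coverage of 1439. The second and widest of the distal ones (chr1:77448938-77466467) was 17530 bp long, 48612 bp from Epha4, an ephrin receptor gene, and at rank 97.3. Next in total signal came regions near Tfap2c (chr2:172574735-172587112, rank 95.9), Lao1 (chr4:119018348-119035125, rank 95.4) and Rnf220 (chr4:117351137-117365789, rank 95.2). All 4 also had H3K18la in 2i medium. Of these, the region near Tfap2c also carried H3K27me3.

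The 5 largest H3K27ac-only promoter regions were 2915 to 3681 bp wide. They lay over Hdgfl2 (chr17:56078181-56081861, rank 96.6), over Peg3 and Usp29 (chr7:6727063-6730670, rank 95.1), over Maf1 and Sharpin (chr15:76349908-76352822, rank 94.3), over Carm1, an arginine methyltransferase (chr9:21544597-21548041, rank 94.0), and over Fbrs and Prr14 (chr7:127476686-127480217, rank 93.7). All 5 carried H3K4me3 and none H3K27me3. The largest distal ones ranked lower, at 85.7 near Sik3 (chr9:46132648-46134540) and 75.1 near Mrps27 (chr13:99352511-99354209). The latter holds the Mrps27 window above.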

How the data were processed

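The authors trimmed the paired CUT&Tag reads (Trim Galore 0.6.6), aligned them to mm10 (Bowtie2 2.4.4), computed fragment coverage (bedtools 2.30), combined the coverage of replicates and called peaks with SEACR 1.3 in stringent mode, keeping the top 1% of regions without a control. The deposited lists give per peak the total signal (coverage summed over its bases) and the maximum signal, in whole numbers not scaled for depth, so signal was ranked within a list and not compared between lists. The study tabulated reads per sample, which were not used here, and filtered out peaks in blacklisted regions. The sources used here do not say whether the deposited lists are those before or after that filter, nor how duplicates were treated. Samples were grouped by the cell type and mark in their labels.

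Peaks on chromosomes 1 to 19 and X were merged (8 H3K18la and 14 H3K27ac peaks elsewhere were left out), and promoters were taken as 2000 bp on either side of the TSS of 139486 transcripts (GENCODE vM21, mm10). Sequence came from the GRCm38 genome. With 1 list per mark no test was made, and shares carry 95% Wilson intervals. Interval overlaps were checked against bedtools 2.31.1 on 20 simulated sets. Calculations used Python 3.11.15, numpy 2.4.6, pandas 2.3.3, scipy 1.17.1 and pysam 0.24.0.

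Named were, per gene list, up to 6 members of highest rank and up to 4 in alphabetical order of each class other than both, and the 5 largest and 3 widest regions per class, of which only some are printed and some genes are not reported here, with distal regions of 8 pluripotency genes. Sox2, Nanog, Utf1, Zfp42, Klf4 and Tfcp2l1 came from the marker list, and Pfkl and Ezh2 were added after their values were seen. The regions, lists and alternatives were chosen with earlier results of these data known. The alternatives that use 500 bp at the maximum or leave out high coverage were chosen after seeing the data.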

Additional observations from a re-analysis of the deposited data

Results flagged for a closer look

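Peaks outside chromosomes 1 to 19 and X were in neither the classes nor the gene counts. The H3K18la list held 8 of them, 6 on Y and 2 on mitochondrial DNA, and the H3K27ac list held 14, 11 on Y and 3 on mitochondrial DNA. They were flagged because they are signal in data that no comparison used, and no control sample of these cells was used here to set them against.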

How the results depend on the processing

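Of 59 values of the 7 main results under alternatives, 24 stayed within the interval of the main value and 35 moved out of it.
With the H3K18la list reduced to the bases of the H3K27ac list, 3.97% of distal regions had H3K18la only and 71.7% H3K27ac only, 19.2% of promoter regions and 19.1% of marked genes had both, the distal H3K18la-only width was 8304 bp and the rank difference (median H3K18la rank of shared minus H3K18la-only distal regions, 37.3 as reported) 22.8.
With the 10000 largest peaks the values were 61.7%, 6.99%, 39.9%, 41.8% and 3998 bp, with H3K27me3 in 28.1% of H3K18la-only promoter regions, and with 5000 they were 62.8%, 7.43%, 35.2%, 34.6%, 5992 bp and 24%. Fewer peaks were compared in these 3 settings.
With start sites of protein-coding transcripts they were 60.3%, 6.47%, 49.6%, 53.0%, 2747 bp and 42.4%.
With promoters of 1 kb on either side, 6.30% of distal regions had H3K27ac only, 49.4% of promoter regions and 53.2% of genes both, and H3K27me3 lay in 33.7%. Merging peaks up to 1000 bp apart gave 50%, 56.0%, 2737 bp and 32.7%. Ranked by maximum signal or mean coverage the rank difference was 32.7 or 34.9, and H3K27me3 within 500 bp of the maximum was 27%. The cause of these shifts was not tested. An overlap of at least 50% of the shorter peak moved none of the 7 results.
Of 32 counts of list members, 6 moved by over 1.5 times. The germ layer genes with H3K18la only numbered 2 to 9, and the pluripotency genes with both marks 22 to 30. No paired analysis was possible because each mark has 1 list, and for the same reason no replicate could be left out. The lists hold no sequencing depth and none was used here. A region without a peak is one that did not pass the threshold of its list, not one shown to lack the mark.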
